A study of Homo sapiens with 16 samples.

Results

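The transformed stage of the BJ model was compared between 3% and atmospheric oxygen, using 4 of the 16 libraries of the series. These are BJ fibroblasts, a human foreskin fibroblast line, that carry hTERT (the catalytic subunit of telomerase) and SV40 Large-T, a viral protein that binds and inactivates the retinoblastoma protein. The libraries were chosen by their labels alone: BJ hTERT+ SV40+ cells at 3% oxygen (replicates a and b) and the same cells at atmospheric oxygen (replicates a and b). Both groups carried both transgenes and were grown for 6 passages in serum-containing medium under 5% carbon dioxide, on duplicate plates of a single line. The p-values therefore rest on the spread between plates, pooled over all 16 libraries of the series and not over the plates of this line alone. The other 12 libraries are 4 each from primary BJ cells, hTERT-immortalized cells and metastasizing cells, to which mutated H-Ras had been added. Of 19356 protein-coding genes measured, 12242 had a mean of at least 1 TPM (a transcript's share of its library, corrected for transcript length) in one of the transformed groups and were tested.

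Cells sense oxygen through prolyl hydroxylases (the EGLN proteins), which mark the HIF alpha subunits for destruction while oxygen is present. At low oxygen HIF1A or EPAS1 pairs with ARNT and binds short sites with the core ACGTG or GCGTG near genes for glucose uptake, glycolysis, acid balance and vessel growth. Low nutrient or oxygen supply can also act through ATF4, which raises amino acid synthesis and transport, and through NF-kB, which raises cytokines.

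The label was checked on marker genes. VIM, a fibroblast intermediate filament gene, stood at 3452 and 3439 TPM at atmospheric and 3367 and 2730 TPM at 3% oxygen, and EPCAM, CDH1, PTPRC and CDH5, which define epithelial, leukocyte and endothelial cells, ranged from 0 to 1.06 TPM over the 4 libraries. The epithelial keratin KRT18 was nevertheless at 245 to 329 TPM. Of 12 fibroblast markers, 11 reached a mean of 1 TPM in a transformed group. PDGFRA did not, at 0.299 and 0.660 TPM at atmospheric and 1.03 and 0.925 TPM at 3% oxygen. The summed level was 277 to 353 TPM for 9 epithelial markers, 43.4 to 93.6 TPM for 8 leukocyte markers, nearly all of it CD68, and 5.30 to 8.65 TPM for 5 endothelial markers. TERT was at 35.4 and 31.6 TPM at atmospheric and 75.1 and 78.0 TPM at 3% oxygen, against a mean of 0 and 0.290 TPM in primary cells at the same oxygen levels. This gene carries the transgene, and its difference was not called (log2 change 1.18 ± 0.36, SE, limma adjusted p = 0.028).

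At adjusted p under 0.01 and a change beyond 2-fold, 916 genes were hypoxia-induced differentially expressed genes (hDEGs), 7.48% of those tested. Of these, 600 (4.9%) were higher and 316 (2.58%) lower at 3% oxygen. Median log2 changes were 1.35 among the higher and -1.30 among the lower, with 12 genes beyond 3 in the first set and 9 in the second. Both 3% libraries lay above both atmospheric libraries for 37.3% of all genes and below them for 35.2%, so most genes had groups that did not overlap. The median log2 change of all genes was 0.01. In a limma fit of the 4 transformed libraries alone 570 genes were called, and the calls of AKR1B1, BST2, CHAC1, CXCL12, CXCL2, CXCL8, DDIT3, IFI6, IFIT5, IL11, IL1A, IL1B, LOX, LOXL4, MMP16, NOG, PDK1, PTGS2, SERPINB2, SOD2 and SREBF2, described below, were lost there (adjusted p of 0.010 to 0.072).

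**Figure D1:**
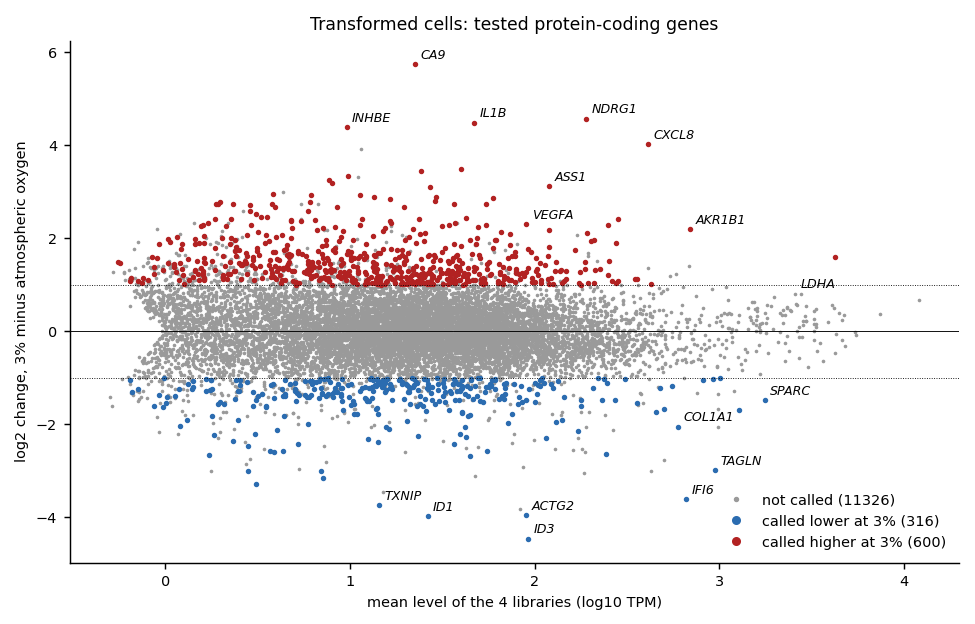
Each point is 1 of 12242 protein-coding genes, with the mean level of the 4 transformed libraries in log10 TPM on the horizontal axis and the log2 change (3% minus atmospheric oxygen) on the vertical axis, and dotted lines at 1 and -1. The 600 hDEGs in red and 316 in blue are spread over all levels, with CA9 at the top and ID3 at the bottom.

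Among called genes whose groups did not overlap and whose higher group averaged 5 TPM or more, the 8 largest rises were those of CA9, NDRG1, IL1B, INHBE, CXCL8, STC1, NUPR1 and GUCY1A2. They include genes of acid balance and differentiation, inflammatory ligands and stress-response genes. The 8 largest falls by the same rule were those of ID3, ID1, ACTG2, TXNIP, IFI6, DHRS2, ATOH8 and COL5A3. Here the leading genes were inhibitors of differentiation, a smooth muscle actin, a thioredoxin inhibitor and a collagen. GUCY1A2, a subunit of the nitric oxide receptor, stood at 1.30 and 1.39 TPM at atmospheric and 18.5 and 17.7 TPM at 3% oxygen (log2 change 3.34 ± 0.17, SE, limma adjusted p = 1.7e-06). DHRS2, a short-chain dehydrogenase, was at 6.38 and 5.73 TPM against 0.102 and 0.255 TPM.

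**Figure D2:**
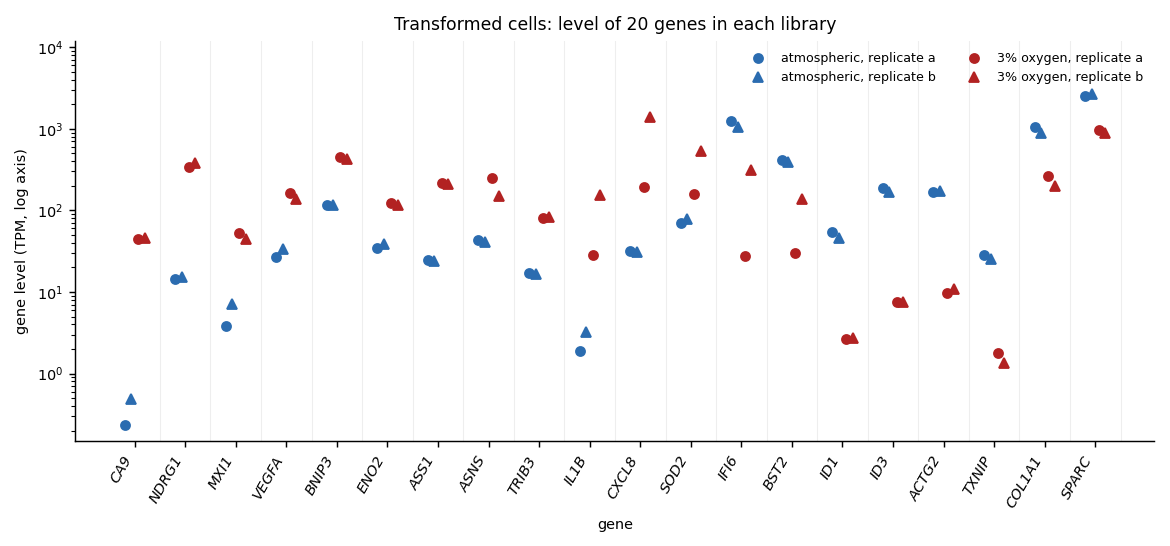
Levels of 20 genes in the 4 transformed libraries are plotted in TPM on a log axis, blue for atmospheric and red for 3% oxygen, with circles for replicate a and triangles for replicate b. For NDRG1, ASS1, ID1 and ID3 the replicates lie close together, as do those of CA9 at 3% oxygen but not at atmospheric oxygen. At 3% oxygen IL1B, CXCL8, SOD2, IFI6 and BST2 are several-fold higher in replicate b than in replicate a.

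Of 36 tested hypoxia targets, 21 rose, 1 fell and 14 did not pass the test, against 4.9% rising and 2.58% falling among all genes. The list's median log2 change was 1.27, against 0.01 for all genes. This and the later lists were chosen with earlier results of these data known, so such shares are a description and not a test. The shares of 4.9% and 2.58% are also those to set beside the counts of each later list. CA9, a carbonic anhydrase of the cell surface that acts in acid balance (chr9:35673925-35681156 in GRCh37), was at 0.231 and 0.487 TPM at atmospheric and 44.03 and 45.5 TPM at 3% oxygen. Its level was thus near the floor of the scale in one group and moderate in the other (log2 change 5.74 ± 0.48, limma adjusted p = 2.6e-05). NDRG1, a differentiation and stress gene, went from 14.4 and 15.3 to 344 and 384 TPM, a 24.5-fold difference in means (log2 change 4.57 ± 0.30, adjusted p = 8.3e-06).

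VEGFA, the main ligand of vessel growth, was at 27.0 and 33.5 TPM at atmospheric and 161 and 138 TPM at 3% oxygen (log2 change 2.29 ± 0.23, adjusted p = 6.9e-05). MXI1, an antagonist of MYC, was at 3.87 and 7.14 TPM against 53.5 and 44.4 TPM (3.09 ± 0.22, adjusted p = 1e-05). In both, the groups are far apart. The replicates are close except those of MXI1 at atmospheric oxygen, where its level is low. At the level of transcripts, the leading MXI1 transcript went from 3.10 and 2.06 to 36.3 and 32.6 TPM, and each of the 3 most abundant VEGFA transcripts was higher in both 3% libraries. BNIP3, a mitophagy receptor, rose 3.75-fold and its relative BNIP3L 4.33-fold. The secreted hormone STC1 rose from 6.08 and 5.86 to 59.2 and 88.7 TPM, and its paralog STC2 rose 3.54-fold. DDIT4, an inhibitor of mTORC1, rose from 15.7 and 12.4 to 123 and 88.8 TPM. The STC1 call was lost without 3% replicate b or either atmospheric replicate (adjusted p of 0.012 to 0.013), and that of DDIT4 without atmospheric replicate b (adjusted p = 0.012).

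Some textbook targets did not follow. ADM, the vasodilator adrenomedullin, was at 249 and 236 TPM against 192 and 233 TPM, and the lipid droplet gene HILPDA at 20.8 and 19.5 against 22.3 and 23.5 TPM. IGFBP3, a carrier of insulin-like growth factors, was the member that fell, from 68.4 and 68.0 to 16.8 and 15.4 TPM (-2.05 ± 0.32, adjusted p = 0.00081). ANGPTL4, below 1 TPM on average in both groups, was not tested.

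Of 9 tested members of the HIF pathway 1 rose (11.1%, against 4.9% of all genes). This was EGLN1, the main oxygen sensor, which rose from 26.8 and 32.4 to 64.4 and 76.0 TPM (1.23 ± 0.14, limma adjusted p = 0.00016). HIF1A was at 344 and 340 TPM against 436 and 348 TPM, and the 3% libraries differed from each other more than the atmospheric ones (0.19 ± 0.11, adjusted p = 0.2). EPAS1 was at 68.4 and 70.7 TPM against 108 and 92.8 TPM, a change below 2-fold, and ARNT at 30.7 and 35.2 against 34.4 and 25.1 TPM. EGLN3, under 1 TPM in every library, was not tested.

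Among 30 glycolysis and lactate genes, 4 rose (13.3%) and 0 fell, against 4.9% and 2.58% of all genes. The list median was 0.31. The 4 were ALDOC, ENO2, the glucose transporter SLC2A3 and PDK1, which holds pyruvate back from mitochondria. ENO2, the neuronal enolase, was at 34.7 and 38.4 TPM against 123 and 116 TPM (1.70 ± 0.09, limma adjusted p = 2.1e-06), and ALDOC, the brain-type aldolase, at 10.7 and 12.8 against 75.5 and 48.8 TPM. The abundant enzymes moved less. LDHA, which makes lactate, was at 1869 and 1871 TPM against 3450 and 3088 TPM, a 1.75-fold difference below the 2-fold threshold (0.80 ± 0.15, adjusted p = 0.0021). GAPDH was at 5579 and 5685 against 5540 and 5108 TPM.

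The promoters of these genes are shown because HIF binds a known core sequence. RefSeq promoters (GRCh38.p14) were matched by symbol for 9953 of 12238 tested symbols, and the 250 bases before each start were searched on both strands. ACGTG or GCGTG occurred in 58.0% of all promoters, in 53.3% of those of genes that rose (257 of 482) and in 58.6% of those of genes that fell (147 of 251). Among hypoxia targets 23 of 27 held it. ACGTG alone was present in 23.7% of all promoters, 23.0% of those that rose, 23.5% of those that fell, and 17 of 27 hypoxia targets. The narrower ACGTGC, a subset of ACGTG chosen after the data were seen, was present in 7.58% of all promoters, 10.6% of those that rose, 5.58% of those that fell, and 12 of 27 hypoxia targets. The windows of 60 bases below, on the gene's strand, show ACGTGC or its reverse complement GCACGT in capitals for 8 genes that rose. These genes were picked because they hold a match.
CA9, chr9:35673868-35673927, + strand: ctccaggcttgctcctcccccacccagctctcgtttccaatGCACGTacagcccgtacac
ANKRD37, chr4:185396671-185396730, + strand: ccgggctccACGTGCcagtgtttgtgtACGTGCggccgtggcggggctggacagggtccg
BNIP3, chr10:131982024-131982083, - strand: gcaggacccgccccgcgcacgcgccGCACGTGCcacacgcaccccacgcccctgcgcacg
PPFIA4, chr1:203026346-203026405, + strand: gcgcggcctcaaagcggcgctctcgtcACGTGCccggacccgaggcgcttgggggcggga
DDIT4, chr10:72273772-72273831, + strand: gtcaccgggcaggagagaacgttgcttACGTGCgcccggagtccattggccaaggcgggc
EGLN1, chr1:231422288-231422347, - strand: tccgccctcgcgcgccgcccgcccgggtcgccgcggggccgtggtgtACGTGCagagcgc
ENO2, chr12:6914435-6914494, + strand: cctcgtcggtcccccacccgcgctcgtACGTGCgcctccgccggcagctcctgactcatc
ALDOC, chr17:28577086-28577145, - strand: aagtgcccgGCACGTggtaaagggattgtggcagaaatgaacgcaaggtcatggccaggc

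In CA9 the match begins 19 bases before the start, and in ANKRD37, an ankyrin-repeat gene that rose from 3.23 and 3.41 to 8.87 and 10.0 TPM, the window holds 2 matches. In BNIP3 the 2 matches overlap on opposite strands. A match is a description of letters and shows no binding.

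Of 76 nuclear genes of the respiratory chain, 0 rose and 0 fell by the test, while 62 of 76 had a negative log2 change and the list median was -0.37. With limma, 36 were lower and 2 higher at an unadjusted p under 0.05, against 45.2% of all genes in either direction. In the 4 libraries their summed level was 16200 and 15640 TPM at atmospheric and 12330 and 12820 TPM at 3% oxygen. NDUFB7, a complex I subunit, had means of 180 and 93.6 TPM at atmospheric and 3% oxygen. The 13 mitochondrially encoded genes gave 0 calls with limma, 0 at an unadjusted p under 0.05, and did not separate by oxygen: they summed to 11570 and 24230 TPM at atmospheric and 17650 and 12700 TPM at 3% oxygen. The atmospheric replicate b, with the highest of these sums, also had the shortest average insert of the 16 libraries (264 bases against 312 to 325 in the other transformed libraries), and the part of insert size in these sums was not tested.

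Among 30 genes of amino acid supply and the ATF4 stress response, 13 rose (43.3%) and 1 fell (3.33%). Among all genes 4.9% rose and 2.58% fell. The list's median log2 change was 1.003. ASS1, which makes argininosuccinate for arginine synthesis (chr9:133320348-133376661 in GRCh37), was at 24.9 and 24.1 TPM at atmospheric and 219 and 213 TPM at 3% oxygen (log2 change 3.11 ± 0.29, limma adjusted p = 4.8e-05). The next enzyme, ASL, moved the other way, from 50.8 and 48.9 to 22.6 and 17.7 TPM (-1.30 ± 0.22, adjusted p = 0.0012), a call lost with the replicate block (adjusted p = 0.012) and without 3 of the 4 libraries taken singly. So 2 neighbouring steps of arginine synthesis went in opposite directions.

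Enzymes of serine and asparagine synthesis rose together. PHGDH, the first step from glycolysis to serine, was at 129 and 130 TPM against 444 and 308 TPM, PSAT1 at 81.8 and 81.4 against 409 and 240 TPM, and ASNS, asparagine synthetase, at 43.0 and 41.4 against 247 and 149 TPM (2.17 ± 0.40, adjusted p = 0.0022). All 3 were higher in replicate a than in replicate b at 3% oxygen, and the calls of PSAT1 and ASNS were lost without 3% replicate a (adjusted p = 0.018 and 0.021) and without either atmospheric replicate. The cystine transporter SLC7A11 rose 5.80-fold, the glutathione-degrading enzyme CHAC1 went from 0.714 and 1.56 to 14.8 and 7.24 TPM, and TRIB3, a pseudokinase that restrains ATF4, went from 17.2 and 16.6 to 79.8 and 83.7 TPM (2.24 ± 0.16, adjusted p = 1.2e-05). The SLC7A11 call was lost without 3% replicate a or atmospheric replicate b (adjusted p of 0.011 for each), and that of CHAC1 without any 1 of the 4 libraries (adjusted p of 0.017 to 0.067) and with the replicate block (adjusted p = 0.021). ATF4 RNA was at 320 and 321 TPM against 671 and 564 TPM, a 1.93-fold difference (0.94 ± 0.13, adjusted p = 0.00044) below the 2-fold threshold.

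Stress-response genes outside this list were among the largest rises. INHBE, an activin subunit, went from 0.208 and 0.694 to 19.5 and 18.0 TPM (4.38 ± 0.46, limma adjusted p = 8.8e-05), and NUPR1, a stress-induced nuclear protein, from 3.51 and 3.75 to 49.4 and 40.5 TPM. The count of 13 was lower with any 1 library left out: it was 6 without either 3% replicate a or atmospheric replicate a, 11 without 3% replicate b and 4 without atmospheric replicate b. The site TGATGNAA resembles part of the ATF4 composite element and was chosen after the data were seen. It occurred in 1.31% of all promoters and in 4 of 25 of this list. Among all genes that rose it was present in 2.07% of promoters (10 of 482), and among all that fell in 0.797% (2 of 251). Of the 4 in this list, 2 from genes that rose are shown with the site, or its reverse complement, in capitals.
CHAC1, chr15:40953236-40953295, + strand: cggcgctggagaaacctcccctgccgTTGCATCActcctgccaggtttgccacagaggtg
ASNS, chr7:97872443-97872502, - strand: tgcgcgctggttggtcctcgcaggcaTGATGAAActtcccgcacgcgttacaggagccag

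The ID proteins are targets of bone morphogenetic protein (BMP) signalling that block differentiation factors. Among 17 tested genes of ID proteins and the BMP pathway 3 fell (17.6%) and 1 rose (5.88%), with a median of -0.01. Among all genes 2.58% fell and 4.9% rose. ID3 (chr1:23884417-23885992 in GRCh37) went from 186 and 168 TPM at atmospheric to 7.46 and 7.63 TPM at 3% oxygen (log2 change -4.46 ± 0.38, limma adjusted p = 2.8e-05). ID1 went from 53.9 and 46.0 to 2.62 and 2.74 TPM (-3.98 ± 0.41, adjusted p = 7.4e-05). Both fell in each of their 2 main transcripts, and the replicates of each group nearly coincide.

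ATOH8, a transcription factor gene of the same list, fell from 13.5 and 12.9 to 1.26 and 0.832 TPM. NOG, the BMP antagonist noggin, rose from 1.02 and 1.24 to 2.77 and 3.96 TPM (1.23 ± 0.27, adjusted p = 0.0051), a call lost with the replicate block (adjusted p = 0.016) and without 3% replicate b or either atmospheric replicate. ID2 did not fall with its relatives, at 61.3 and 60.6 against 73.2 and 97.0 TPM.

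Of 16 TGF-beta ligands and targets 1 was called lower (6.25%, against 2.58% of all genes), TAGLN. This actin-binding gene of smooth muscle and contractile fibroblasts fell from 1750 and 1630 to 204 and 222 TPM (-2.99 ± 0.44, adjusted p = 0.00058). ACTG2, the enteric smooth muscle actin, fell from 168 and 171 to 9.82 and 11.0 TPM (-3.96 ± 0.18, adjusted p = 8.9e-07). TXNIP, which binds thioredoxin and limits glucose uptake, fell from 28.7 and 25.5 to 1.78 and 1.35 TPM (-3.74 ± 0.17, adjusted p = 8.9e-07).

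The 2 libraries at 3% oxygen differed from each other more than the 2 at atmospheric oxygen. More than 2-fold differences between replicates were found for 532 genes (4.35%) at 3%, of which 364 were higher in replicate b, and for 262 genes (2.14%) at atmospheric oxygen. Spearman's rho across genes was 0.9743 and 0.9902, and genes are not independent replicates. Over 2-fold higher in replicate b at 3% oxygen were 16 of 23 cytokines, 7 of 21 NF-kB genes and 35 of 36 interferon-stimulated genes, and the counts and medians of these lists are given with and without each 3% library.

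**Figure D3:**
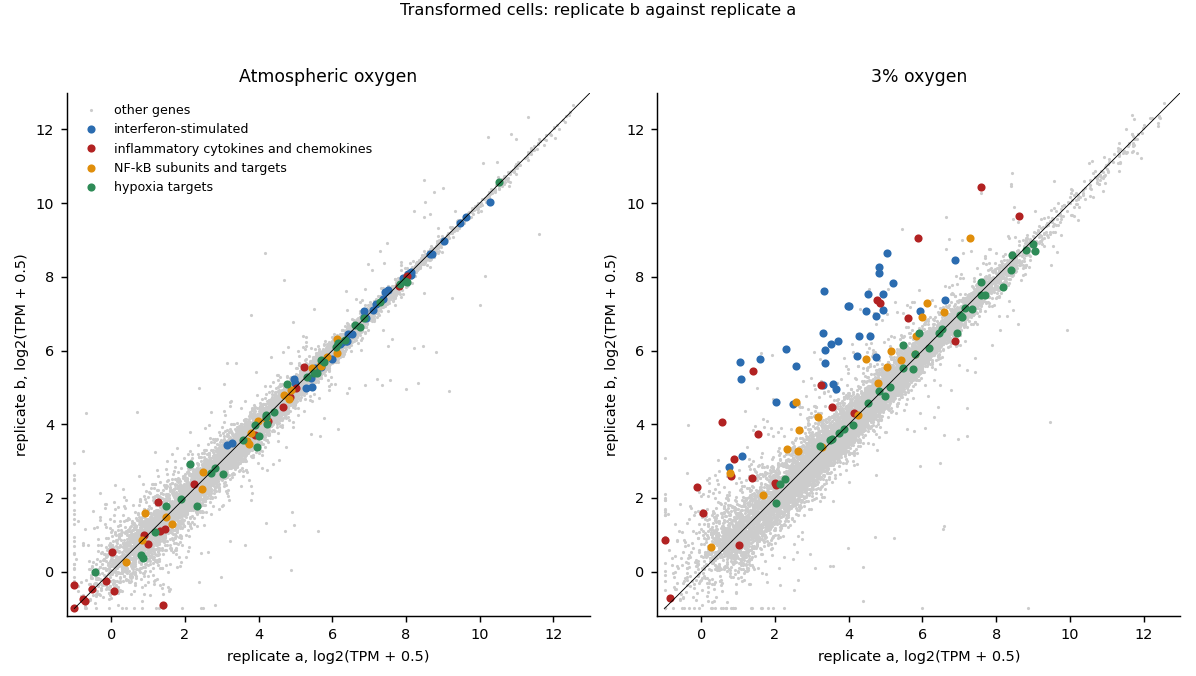
Each point is a gene, with log2(TPM + 0.5) in replicate a on the horizontal and in replicate b on the vertical axis, atmospheric oxygen on the left and 3% on the right, and the diagonal marks equal levels. Most interferon-stimulated genes and cytokines lie above the diagonal at 3% oxygen and near it at atmospheric oxygen, while hypoxia targets stay close to it in both.

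Of 23 tested inflammatory cytokines and chemokines, 6 rose (26.1%) and 1 fell (4.35%), against 4.9% and 2.58% of all genes. Those that rose were IL1B, CXCL8, CXCL2, IL1A, TSLP and IL11, and the list median was 1.69. CXCL8, the neutrophil chemoattractant interleukin 8, was at 31.6 and 31.1 TPM at atmospheric and 191 and 1385 TPM at 3% oxygen (log2 change 4.02 ± 0.75, limma adjusted p = 0.0022). IL1B, interleukin 1 beta, was at 1.89 and 3.22 TPM against 28.1 and 155 TPM (4.48 ± 0.74, adjusted p = 0.0011). For both, the lower 3% library is still above both atmospheric libraries, and replicate b is several-fold above replicate a. Without 3% replicate a the log2 change was 5.44 for CXCL8 and 5.71 for IL1B, and without 3% replicate b it was 2.59 and 3.26.

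IL6 was at 37.0 and 46.6 TPM against 58.0 and 536 TPM and was not called (2.08 ± 0.71, adjusted p = 0.044), nor was the monocyte chemoattractant CCL2 at 222 and 214 TPM against 391.6 and 812 TPM. CXCL12, a chemokine that stromal cells secrete, was the member that fell, from 261 and 261 to 117 and 75.6 TPM (-1.47 ± 0.23, adjusted p = 0.00081), with an adjusted p of 0.011 in the fit of the transformed libraries alone. Without 3% replicate a, 13 members rose and 1 fell (median 2.61), where 3.93% of all genes were called higher and 2.21% lower. Without 3% replicate b, 2 rose and 2 fell (median 0.67), where 3.78% of all genes were called higher and 2.14% lower. With the replicate block 2 rose, without atmospheric replicate a 0 did, and without atmospheric replicate b 1 did. The CXCL8 call was lost without atmospheric replicate a or b (adjusted p = 0.017 and 0.018, in a range of 0.00025 to 0.029 over alternatives) and that of IL1B without atmospheric replicate a (adjusted p = 0.014). CXCL2, IL1A, TSLP and IL11 lost their calls without 3% replicate b or either atmospheric replicate, and with the replicate block.

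Among 21 NF-kB subunits and targets 5 rose (23.8%) and 0 fell, against 4.9% and 2.58% of all genes, with a median of 0.55. ICAM1, the leukocyte adhesion receptor, was at 17.9 and 17.1 TPM against 63.0 and 119 TPM (2.28 ± 0.26, limma adjusted p = 0.00012), and PTGS2, the inducible prostaglandin synthase, at 0.829 and 0.698 against 5.44 and 23.9 TPM. Without 3% replicate a the log2 change was 2.74 for ICAM1 and 4.27 for PTGS2, and without 3% replicate b it was 1.82 and 2.235. SOD2, the mitochondrial superoxide dismutase, was at 69.9 and 78.4 against 157 and 533 TPM (1.96 ± 0.45, adjusted p = 0.0072). Its call was lost without 3% replicate b (log2 change 1.08, adjusted p = 0.039), without either atmospheric replicate, with the replicate block (adjusted p = 0.014) and with protein-coding transcripts alone (adjusted p = 0.019), in a range of 0.00046 to 0.054 over alternatives. The NF-kB subunit RELA had means of 57.3 and 57.1 TPM. Without 3% replicate a 8 members rose (median 1.03) and without 3% replicate b 3 did (median 0.40). The count was also 3 without either atmospheric replicate or with the replicate block.

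Interferon-stimulated genes encode antiviral proteins. All 36 tested had a negative log2 change and 31 of them had both 3% libraries below both atmospheric ones, as had 35.2% of all genes, with a median of -1.75, but 3 were called lower (IFI6, BST2 and IFIT5) and 0 higher, and 31 were lower at an unadjusted p under 0.05 with limma, a level that 45.2% of all genes passed in either direction. Their summed level was 7505 and 7288 TPM at atmospheric oxygen, and 768 TPM in replicate a and 4165 TPM in replicate b at 3% oxygen. The size of the difference thus depended on the plate, and 35 of 36 genes were over 2-fold higher in replicate b than in replicate a.

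IFI6, a mitochondrial antiviral protein, was at 1249 and 1056 TPM against 27.9 and 309 TPM (-3.62 ± 0.77, adjusted p = 0.0046). BST2, tetherin, was at 417 and 391 against 29.9 and 137 TPM. The antiviral GTPase MX1 was at 786 and 793 against 32.5 and 401 TPM and was not called (-2.78 ± 0.81, adjusted p = 0.021). Without 3% replicate a the log2 change was -1.89 for IFI6 and -1.55 for BST2, and without 3% replicate b it was -5.34 and -3.74. Without 3% replicate b, 33 of 36 were called lower with a median of -3.12, and without 3% replicate a 3 were, with a median of -0.52. With the replicate block, and without either atmospheric replicate, none of the 36 was called.

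Among 23 collagens 4 fell and 3 rose, with a median of -0.51. COL1A1, the main chain of type I collagen, was at 1045 and 883 TPM against 266 and 200 TPM (-2.05 ± 0.43, limma adjusted p = 0.0044), and this call was lost when any 1 library was left out (adjusted p of 0.014 to 0.035) and with the replicate block (adjusted p = 0.022). COL6A1, a chain of microfibrillar collagen, likewise lost its call in each of those fits. COL4A1, of basement membranes, was at 118 and 117 TPM against 37.8 and 30.3 TPM, COL6A1 at 230 and 185 against 47.7 and 58.7 TPM, and the minor fibrillar chain COL5A3 at 13.1 and 12.5 against 0.739 and 1.68 TPM. The 3 that rose were COL8A2 from 1.53 and 1.31 to 9.76 and 9.10 TPM, COL11A1 from 23.5 and 24.5 to 123 and 73.4 TPM, and the transmembrane collagen COL13A1 from 10.9 and 7.25 to 27.4 and 28.1 TPM.

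Genes that modify collagen and matrix split in the same manner, 2 falling and 2 rising of 17 (11.8% each). SPARC, a collagen-binding glycoprotein, fell from 2545 and 2664 to 978 and 881 TPM (-1.49 ± 0.22, limma adjusted p = 0.00058), and POSTN, periostin, from 5.43 and 5.28 to 0.397 and 0.0907 TPM. The prolyl hydroxylase P3H2 rose 3.52-fold and the lysyl oxidase LOXL4 rose 2.59-fold, a call lost without 3% replicate a (adjusted p = 0.016) or either atmospheric replicate. LOX, PLOD2 and P4HA1, collagen-modifying enzymes held in the hypoxia list, rose 2.44-, 2.17- and 2.45-fold.

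Of 22 matrix proteases and inhibitors 3 rose (13.6%) and 1 fell (4.55%), against 4.9% and 2.58% of all genes. PLAU, the urokinase plasminogen activator, rose from 35.4 and 35.8 to 93.4 and 124 TPM, the aggrecan-cleaving ADAMTS5 rose 3.52-fold, and SERPINB2, an inhibitor of plasminogen activators, was at 5.39 and 5.14 against 18.1 and 86.8 TPM (2.80 ± 0.65, limma adjusted p = 0.007). The SERPINB2 call was lost without 3% replicate b (adjusted p = 0.053), without either atmospheric replicate, with the replicate block (adjusted p = 0.019) and with no filter on low values (adjusted p = 0.014). MMP16, a membrane-bound protease that fell, lost its call when only transcripts annotated as protein-coding were summed (log2 change -0.59, adjusted p = 0.1), a choice made after the data were seen, and also without 3% replicate b (adjusted p = 0.016) or atmospheric replicate a (adjusted p = 0.023) and with the replicate block (adjusted p = 0.012). Of 14 angiogenic ligands and receptors outside VEGFA, 0 passed the limma test. An unadjusted p under 0.05 was found for 9 of them, and for 45.2% of all genes. THBS1, the vessel growth inhibitor thrombospondin 1, was at 301 and 305 TPM against 101 and 82.5 TPM with an adjusted p of 0.031, and of 1.1e-05 without the metastasizing stage, in a range of 1.1e-05 to 0.13 over alternatives. Among 11 fibroblast markers FAP rose from 18.2 and 19.8 to 71.6 and 85.3 TPM and the collagen receptor DDR2 rose 2.49-fold.

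Of 18 endoplasmic reticulum folding genes, 3 fell (16.7%) and 0 rose, against 2.58% and 4.9% of all genes. Those that fell were CALR, PDIA4 and CRELD2, and the list median was -0.39. CALR, the lectin chaperone calreticulin, was at 1217 and 1258 TPM against 634 and 584 TPM (-1.02 ± 0.11, limma adjusted p = 9.7e-05), just inside the 2-fold threshold, and its log2 change was -0.71 with quantile normalization and -0.96 without 3% replicate b. The CRELD2 call was lost with the replicate block (adjusted p = 0.0104). HSPA5, the main luminal chaperone, was at 480 and 458 TPM against 245 and 239 TPM, just outside it (-0.95 ± 0.12). DDIT3, which both the unfolded protein response and ATF4 raise, was one of the 13 amino acid and stress genes that rose, from 60.2 and 63.7 to 117 and 178 TPM, a call lost without 3% replicate b (log2 change 0.91, adjusted p = 0.013) or either atmospheric replicate.

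Of 26 antioxidant and aldo-keto reductase genes 1 rose and 1 fell (3.85% each), near the 4.9% and 2.58% of all genes. AKR1B1, aldose reductase, went from 232 and 241 to 760 and 1552 TPM (2.20 ± 0.27, limma adjusted p = 0.00022, and 0.012 in the fit of the transformed libraries alone), and the quinone reductase NQO1 from 349 and 334 to 139 and 106 TPM (-1.49 ± 0.17, adjusted p = 0.00014). Of 28 fatty acid genes 1 rose and 1 fell (3.57% each), also near the shares of all genes. The desaturase FADS1 rose from 68.6 and 62.4 to 137 and 136 TPM. The fatty acid binding protein FABP5 fell from 66.0 and 63.5 to 15.6 and 11.7 TPM. SCD, the stearoyl-CoA desaturase, was at 86.3 and 88.8 TPM against 217 and 158 TPM and was not called (1.08 ± 0.34, adjusted p = 0.03). Of 24 cholesterol genes 1 was called higher (4.17%), the regulator SREBF2, from 37.8 and 38.9 to 109 and 75.4 TPM. Without 3% replicate a the log2 change of SREBF2 was 0.96, and without atmospheric replicate b that of FADS1 was 0.99, both under the limit for a call.

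Proliferation genes gave no calls. None of 39 DNA replication genes and none of 34 mitosis genes passed the test with limma, with medians of -0.06 and -0.07. An unadjusted p under 0.05 was found for 13 and 6 of them, smaller shares than the 45.2% of all genes. PCNA, the replication clamp, was at 398 and 353 TPM against 456 and 559 TPM (0.43 ± 0.11, adjusted p = 0.011), and CCNB1, the mitotic cyclin, at 471 and 460 against 419 and 384 TPM. CDKN1A, the cyclin-dependent kinase inhibitor p21, was at 46.0 and 45.3 against 67.0 and 109 TPM (0.90 ± 0.34, adjusted p = 0.061).

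Of 78 cytosolic ribosomal protein genes 55 had a positive change, with a median of 0.17. In this list 1 was called lower (1.28%, against 2.58% of all genes). That gene, RPS10, was lower at 3% oxygen (69.4 and 67.6 against 24.6 and 24.5 TPM) but has near-identical copies and a readthrough neighbour, so its value is uncertain. Of 62 splicing factors 1 was called higher (1.61%, against 4.9% of all genes). That gene, SRSF5, rose from 173 and 184 to 412 and 329 TPM. Its log2 change came to 0.88 without 3% replicate a, to 0.998 without atmospheric replicate a and to 0.93 with protein-coding transcripts alone.

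**Figure D4:**
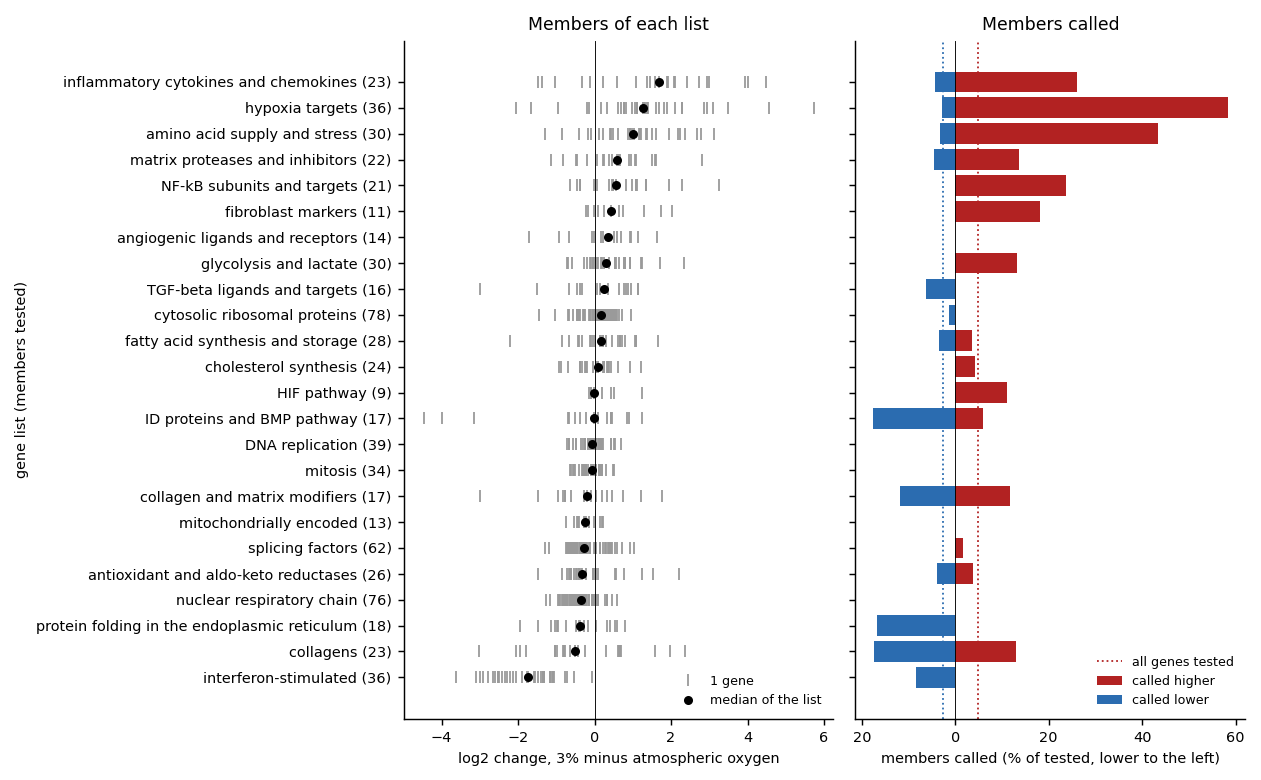
On the left each tick is a tested member of a list and the black point its median, on the scale of log2 change (3% minus atmospheric oxygen), and the number of members is in brackets. On the right bars give the percent of members called higher (red) or lower (blue), with dotted lines at 4.9% and 2.58% for all genes. Hypoxia targets and amino acid genes stand out for members called higher, while interferon-stimulated genes have the lowest median with 3 of 36 called.

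The oxygen response of transformed cells was set beside that of the other stages, whose libraries are separate. By the same rule 5.3% of genes were called in primary cells (646), 4.91% in immortalized cells (592) and 7.66% in metastasizing cells (941). Of the 916 hDEGs, 100 were also called in primary cells (10.9% of the transformed and 15.5% of the primary hDEGs), of which 57 moved the same way. With immortalized cells 92 were shared (10.0% and 15.5%), of which 30 moved the same way and 47 rose in transformed but fell in immortalized cells. With metastasizing cells 157 were shared (17.1% and 16.7%), of which 122 moved the same way.

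The difference in oxygen effect was tested directly as an interaction. Between transformed and primary cells 1302 genes (10.2%) differed, between transformed and immortalized cells 1522 (12.0%), and between metastasizing and transformed cells 1066 (8.47%). In fits of only the libraries compared the counts were 1223, 1686 and 123, and with the replicate block 618, 887 and 439. These 3 comparisons all use the transformed libraries, so they are not independent of each other. Of the genes called in each, 660 had a more positive and 642 a more negative effect in transformed than in primary cells, 779 and 743 against immortalized cells, and 358 and 708 had a more positive and a more negative effect in metastasizing than in transformed cells. The split depends on scaling: with median-ratio rescaling the counts were 834 and 442, 980 and 475, and 458 and 580, and with quantile normalization the last pair was 484 and 534. Median-ratio rescaling moved the median difference of all genes from -0.06 to 0.07, from -0.08 to 0.06 and from -0.15 to -0.04 (log2) in these comparisons.

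ASS1 illustrates the change of direction: the mean fell from 155 to 37.3 TPM in primary cells and from 679 to 220 TPM in immortalized cells, and rose from 24.5 to 216 TPM in transformed cells (difference from primary 5.13 ± 0.41 on the log2 scale, limma adjusted p = 2.5e-05). The paper reports that this gene was also significantly higher at low oxygen in metastasizing cells, so its rise was not particular to the transformed stage. TRIB3 moved in the same directions as ASS1, with log2 changes of -1.65 (primary), -1.36 (immortalized), 2.24 (transformed) and 0.65 (metastasizing). MXI1 was called in transformed cells, and its log2 changes elsewhere were -0.19, -0.29 and 0.07 (difference from primary 3.28 ± 0.31, adjusted p = 6.1e-05). BNIP3, by contrast, changed by 1.84 in primary and 1.55 in immortalized cells, close to its 1.90 in transformed cells, and by 0.11 in metastasizing cells (metastasizing minus transformed -1.80 ± 0.26, adjusted p = 0.00083).

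ID1 and ID3 separated the stages in the other direction. The mean of ID3 was 303 and 303 TPM in primary cells at atmospheric and 3% oxygen, 24.9 and 156 TPM in immortalized cells, 177 and 7.55 TPM in transformed cells, and 28.2 and 61.9 TPM in metastasizing cells. CXCL8 fell from 2988 to 85.7 TPM in immortalized cells, and the transformed minus immortalized difference was 9.11 ± 1.06 on the log2 scale (limma adjusted p = 0.00016). The hypoxia target list had medians of 0.64 (primary), 0.34 (immortalized), 1.27 (transformed) and -0.06 (metastasizing). The amino acid list had -0.20, -0.08, 1.003 and 0.01 in the same order, and 14 of its members had a more positive oxygen effect in transformed than in primary cells and 1 a more negative one, against 5.17% and 5.03% of all genes. The list was chosen with earlier results of these data known, so these shares describe it and are not a test.

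**Figure D5:**
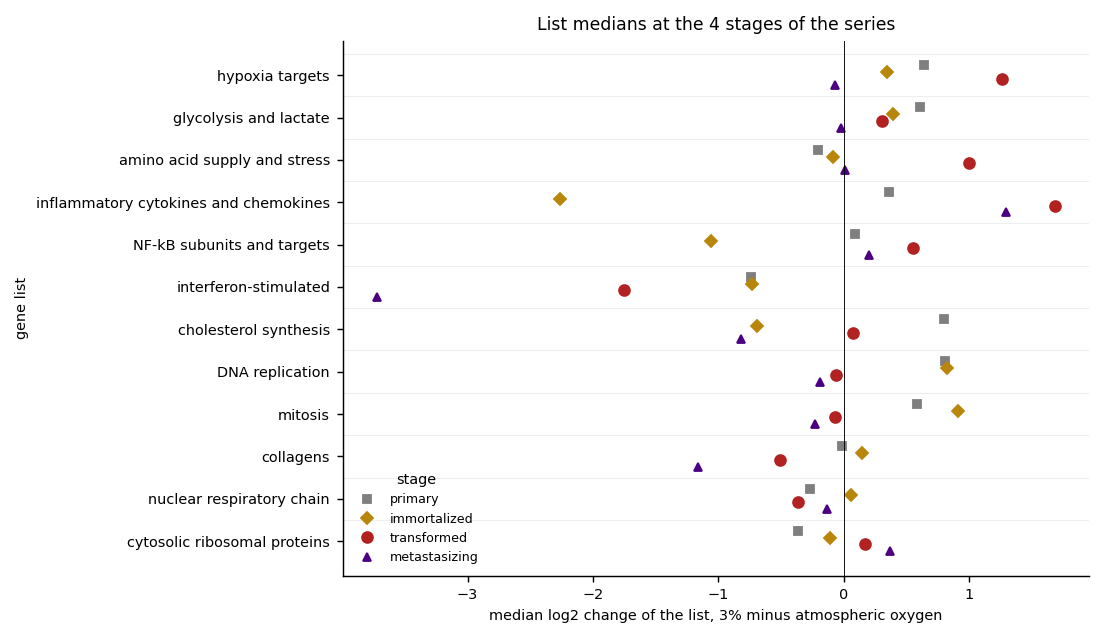
Median log2 change (3% minus atmospheric oxygen) of 12 gene lists at each of the 4 stages, with the transformed stage as red circles. The hypoxia and amino acid lists have their highest median in transformed cells (1.27 and 1.003), DNA replication and mitosis are near 0 there but above 0.5 in primary and immortalized cells, and the interferon-stimulated list is lowest in metastasizing cells.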

How the data were processed

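RNA was sequenced by the authors from poly-A libraries made with a stranded kit, and transcripts were quantified with kallisto 0.42.1 against GRCh37, per the labels. The deposited values are TPM per transcript, normalized by the authors so that each library sums to 1000000. TPM keeps no read depth, so no interval that needs depth is given. Of 180253 transcripts, 151453 were matched to GENCODE 44 (lifted to GRCh37) and summed by gene, covering 88.2% to 90.1% of TPM. log2(TPM + 0.5) was fitted with limma 3.58.1 in R 4.3.3, with 16 libraries, 8 group coefficients and an intensity trend. Genes were called at a Benjamini-Hochberg adjusted p under 0.01 and a log2 change beyond 1, and fold changes on this scale understate low genes. An exact permutation test of 2 against 2 libraries cannot give a two-sided p below 0.333. The procedure was tested on simulated data. Errors are SE unless stated.

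The 28 gene lists were written as hand-made sets of pathway members. Members and lists were chosen with earlier results of these data known. Named genes are the 8 largest rises and 8 largest falls, in each list the called member that rose most, the one that fell most and the most abundant one, a set of hypoxia and model genes, and 3 highest and 3 lowest differences from each other stage. Others were named after their values were seen. ISG15, ACACA, EFNB2 and PECAM1 were not analysed here, and some named genes and 1 list are not reported here.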

Additional observations from a re-analysis of the deposited data

Results flagged for a closer look

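Genes were singled out where the oxygen effect in transformed cells differed from that in another stage, tested as an interaction with limma, and the extremes below are among genes also called in the transformed stage. Between transformed and primary cells 1302 genes were called, and the named extremes of the difference on the log2 scale were TXNIP (-5.31), ID3 (-4.46) and ID1 (-3.95), and INHBE (5.25), ASS1 (5.13) and NUPR1 (5.05). NUPR1 was at a mean of 142 and 46.5 TPM in primary cells at atmospheric and 3% oxygen, and at 3.63 and 44.9 TPM in transformed cells.

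Between transformed and immortalized cells 1522 genes were called. The extremes were ID3 (-7.14), ID1 (-6.53) and KRT81 (-6.02), and CXCL8 (9.11), IL1B (8.26) and CXCL2 (7.17). KRT81 is a hair keratin with near-identical relatives, so its level is uncertain. CXCL8, IL1B and CXCL2 were several-fold higher in replicate b than in replicate a of the transformed 3% libraries. Their differences from immortalized cells were 10.54, 9.48 and 8.08 without transformed 3% replicate a, and 7.69, 7.03 and 6.27 without replicate b, and all stayed called.

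Between metastasizing and transformed cells 1066 genes were called. The extremes were NUPR1 (-5.20), DPT (-5.02) and INHBE (-5.00), and ID1 (5.48), ID3 (5.43) and ACTG2 (5.30). DPT, a dermatopontin gene of the matrix, was at 6.11 and 6.18 TPM at atmospheric and 34.2 and 69.7 TPM at 3% oxygen in transformed cells. The 3 comparisons share the transformed libraries.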

How the results depend on the processing

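Of 85 named genes, 52 were called, and 31 stayed called under all 18 alternatives (33 under those that keep all 4 libraries). No named gene that was called under a setting turned direction. Leaving out 1 transformed library gave 513 to 754 hDEGs, 346 to 483 higher and 162 to 271 lower, and 786 to 1154 genes for transformed minus primary, 993 to 1456 for transformed minus immortalized and 598 to 987 for metastasizing minus transformed. A fit of only the libraries compared gave 570 hDEGs (366 higher, 204 lower) and 123 genes for metastasizing minus transformed. At an adjusted p under 0.05 the counts were 1969 for transformed minus primary and 1722 for metastasizing minus transformed, and array weights gave 686 for the latter. With the replicate block (letters a and b within a stage) 612 hDEGs were called, 426 higher and 186 lower, of which 597 were among the 916, and 618, 887 and 439 genes for the 3 stage differences. The correlation of same-letter deviations at the transformed stage was -0.0855 across genes, so the letters were not taken to pair the plates. Summing only transcripts annotated as protein-coding, added with the data in view, gave 936 hDEGs. Depth is unknown, so the precision of low levels cannot be stated.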

Other observations

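Single transcripts with at least 50 TPM in the 4 transformed libraries and at least 90% of that in 1 library numbered 43: 22 in atmospheric replicate a, 1 in atmospheric replicate b, 3 in 3% replicate a and 17 in 3% replicate b. Of these, 14 were annotated as protein-coding transcripts. HNRNPH1-221, a retained-intron transcript of a splicing factor gene, was at 2561 TPM in atmospheric replicate a and at 0, 0.913 and 0.529 TPM in the others. SNRPE-203 was at 855 TPM in the same library against 0.593, 0.279 and 0.769 TPM, and GPX4-205 at 1061 TPM in 3% replicate b against 0, 0 and 9.502 TPM. Gene sums of HNRNPH1, SNRPE, GPX4 and NDUFV2 thus held a large part from 1 library, and none of the 4 was called. Of the genes with such transcripts, 2 were called: ABCF2, lower at 3% oxygen (181 and 69.9 TPM against 39.9 and 36.0 TPM), with ABCF2-205 at 116 TPM in atmospheric replicate a, and RSL24D1, higher (67.3 and 65.1 against 138 and 250 TPM), with RSL24D1-204 at 118 TPM in 3% replicate b. STYK1, a kinase gene, was at 29.7 TPM in atmospheric replicate a and 2.28 to 2.56 TPM in the others, nearly all of it STYK1-206 (26.5 TPM in that library and 0 in the other 3), and its difference was not called (-1.73 ± 1.23, limma adjusted p = 0.3).

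Genes that are not protein-coding were tested in a fit of all annotated genes, which called 639 genes higher and 318 lower at 3% oxygen. Of 982 that are not protein-coding, 58 were higher and 10 lower, among them 19 and 6 of 281 lncRNAs. In the main fit 4.9% of protein-coding genes were higher and 2.58% lower. LINC01583 was at 0.376 and 0.281 TPM at atmospheric and 5.11 and 4.60 TPM at 3% oxygen, and DLEU2L at 23.6 and 23.3 against 5.79 and 5.21 TPM. The processed pseudogene BNIP3P1 was at 19.4 and 14.5 TPM against 74.1 and 68.2 TPM, which follows its near-identical parent BNIP3, and reads of the 2 cannot be told apart here. These genes were named after their values were seen.

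HRAS, which carries no transgene at this stage, was at 120 and 99.0 TPM at atmospheric and 49.4 and 61.8 TPM at 3% oxygen and was not called (-0.97 ± 0.55, limma adjusted p = 0.2). Its main transcript, HRAS-201, was at 57.3 and 54.3 TPM against 26.2 and 24.5 TPM.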
